A study of Mus musculus with 2 samples.

Results

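A set of 9 genes of eicosanoid synthesis and breakdown were followed across the cells of mouse pancreatic tumours: Ptgs1, Ptgs2, Ptges, Hpgds, Alox5, Alox5ap, Ltc4s, Lta4h and Pla2g7. They were chosen by symbol, and all 9 were found among the 32285 genes counted. Eicosanoids are short-lived lipids made from arachidonic acid after a phospholipase frees it from membranes. In the prostaglandin branch, the cyclooxygenases encoded by Ptgs1, which most tissues express steadily, and Ptgs2, which inflammatory signals induce, make the unstable intermediate prostaglandin H2. Ptges, the inducible microsomal prostaglandin E synthase, turns it into prostaglandin E2, and Hpgds, the haematopoietic prostaglandin D synthase, turns it into prostaglandin D2. In the leukotriene branch, 5-lipoxygenase (Alox5) works with its activating protein (Alox5ap) to make leukotriene A4. Lta4h, leukotriene A4 hydrolase, converts that into leukotriene B4, which attracts neutrophils, and Ltc4s, leukotriene C4 synthase, makes the first cysteinyl leukotriene. Pla2g7 encodes a secreted phospholipase that breaks down platelet-activating factor, another inflammatory lipid. In pancreatic tumours these lipids are known chiefly as products of macrophages, granulocytes, tuft cells and tumour cells.

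Single-cell RNA was counted in 2 libraries from KPPC mice, an autochthonous model of pancreatic cancer: 1 from animals given vehicle and 1 from animals given takinib, an inhibitor of the kinase TAK1, at 50 mg/kg. All were 6 weeks old and were treated for 14 days. The labels do not spell out the alleles that KPPC stands for, nor the driver of any Cre, nor how many mice each library holds. Every comparison below is therefore between 1 library and 1 library: no replicate error exists, no test was run, and the intervals cover counting error only.

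After filtering, 9558 vehicle and 25183 takinib cells remained, with medians of 3556 and 2887 UMIs (unique molecular identifiers, each counting 1 captured RNA molecule). The libraries differed in more than treatment. The vehicle library held 1075 cells with Xist UMIs only and 3087 with Y-linked UMIs only, so it came from mice of both sexes; in the takinib library 14324 cells had Xist UMIs only and 0 had Y-linked UMIs. Mitochondrial RNA had a median share of 8.70% in vehicle and 1.79% in takinib cells, and 359 cell barcodes occurred in both libraries. The takinib library was rich in neutrophils, and RNA of the neutrophil genes S100a8 and S100a9 was spread over its other cells. Their summed level in epithelial-like cells was 95.7 CPM (counts scaled by the total of the cells summed) in vehicle and 9530 CPM in takinib, and in B-like cells it was 763 and 43200 CPM. Its part in the differences between the libraries was not tested, and its level is given beside the results it moves with.

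Cells were grouped by marker genes without using any of the 9 genes. Of 11 named classes, 8 held at least 100 cells in each library. In vehicle and takinib these were 4622 and 6054 macrophage-like, 137 and 1007 monocyte-like, 268 and 7648 neutrophil-like, 208 and 1256 B-like, 251 and 1260 T-like, 717 and 104 endothelial-like, 561 and 102 fibroblast-like, and 1699 and 1880 epithelial-like cells. A level in CPM is the class's summed UMIs of the gene, scaled by all UMIs of that class in that library. A gene was called different when it had at least 50 counts in a library and the takinib level was at least 2 times, or at most 0.5 times, the vehicle level. Of the 72 combinations of gene and class, 59 reached 50 counts. Of these, 27 were higher in takinib and 5 were lower, where 7.73% of all gene and class combinations were higher and 11.3% lower. Over the sum of all kept cells, 4 of the 9 genes were higher and 1 lower (8.25% and 17.7% of all genes).

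**Figure D1:**
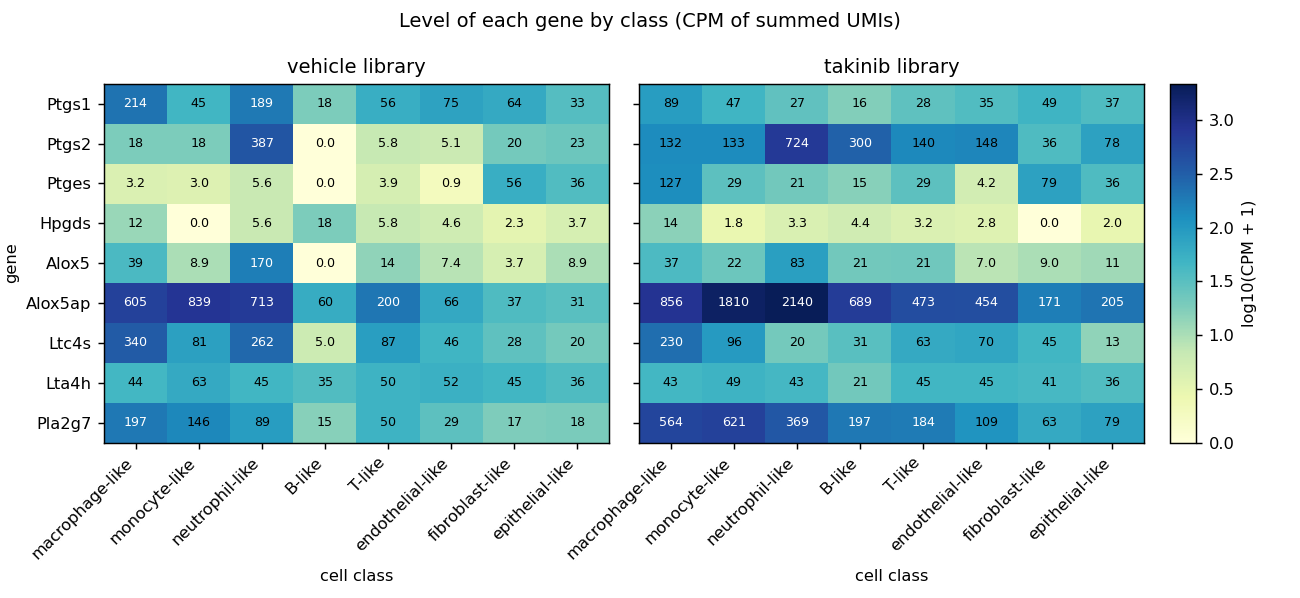
Level of each gene in 8 cell classes, in CPM of summed UMIs, for the vehicle and the takinib library; colour is log10(CPM + 1), and each cell of the grid gives the CPM. Ptgs1 and Ltc4s were highest in vehicle macrophage-like and neutrophil-like cells, and Ptgs2 in takinib neutrophil-like cells (724 CPM).

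The level of the constitutive cyclooxygenase gene, Ptgs1, was highest, among the 8 classes, in macrophage-like cells, and the takinib level there was below the vehicle level. Macrophage-like cells held 78.2% of its vehicle UMIs and 55.2% of its takinib UMIs. Their level was 214 CPM in vehicle (95% interval 207 to 220) and 88.6 CPM in takinib, a ratio of 0.414 (interval 0.397 to 0.433). In neutrophil-like cells the ratio was lower still, with 189 CPM in vehicle against 27.3 CPM in takinib (ratio 0.144, interval 0.112 to 0.188). Endothelial-like cells had 75.1 and 34.8 CPM, and T-like cells 55.9 and 28.1 CPM, of which only the first passed the 2-fold rule. Fibroblast-like cells had 64.0 and 48.6 CPM, monocyte-like 44.8 and 47.0 CPM, and epithelial-like 33.2 and 36.8 CPM, differences that their counting intervals do not separate.

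The inducible cyclooxygenase gene, Ptgs2, had a different distribution and the opposite direction. In vehicle, macrophage-like cells held 40.2% of its UMIs, epithelial-like cells 29.9% and neutrophil-like cells 15.7%, although neutrophil-like cells were only 2.80% of all cells. In takinib, neutrophil-like cells held 52.1% of its UMIs. The level in neutrophil-like cells was 387 CPM in vehicle against 724 CPM in takinib, a ratio of 1.87 (interval 1.58 to 2.22). Macrophage-like cells had 17.6 CPM in vehicle against 132 CPM in takinib, a ratio of 7.47 (interval 6.71 to 8.34), and monocyte-like cells 17.9 and 133 CPM. Ptgs2 passed the 2-fold rule, always with the higher level in takinib, in 6 of the 7 classes where it reached 50 counts.

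Higher Ptgs2 came with higher S100a8 and S100a9 in myeloid and other classes alike. The summed level of these 2 genes was 258 and 7410 CPM (vehicle and takinib) in macrophage-like cells. In T-like cells it was 488 and 16500 CPM. B-like cells had 0 Ptgs2 counts in vehicle and 885 in takinib, a level of 300 CPM that was at least 40.0-fold higher than the floor of 3 vehicle counts. Endothelial-like cells had 5.10 and 148 CPM, T-like cells 5.78 and 140 CPM and epithelial-like cells 23.2 and 78.4 CPM. Per 1000 takinib counts of S100a8 and S100a9 together, there were 6.95 Ptgs2 counts in B-like, 6.15 in endothelial-like, 8.5 in T-like and 8.22 in epithelial-like cells, with 4.53 in those called fibroblast-like. The whole neutrophil-like class stood at 5.0, below all of these but the fibroblast-like value. Its 4 clusters ran from 0.435 to 9.51, a range too wide to tell the source of Ptgs2 RNA in the other classes. Monocyte-like cells, at 11.2, and the 5 macrophage-like clusters, at 10.1 to 27.6, lay above that range. The part of neutrophil RNA in these Ptgs2 levels was not tested. With the takinib neutrophil profile subtracted in proportion to S100a8 and S100a9, the epithelial-like ratio was 1.42 and the macrophage-like ratio 5.65. The B-like ratio (from 0 vehicle counts), the T-like and the endothelial-like ratio stayed above 2, at 15.9, 11.2 and 6.5. The fibroblast-like value was at most 0.286, an upper bound set by the floor of 3 counts. The subtraction left none of its 20 takinib counts. In single cells thinned to 1000 UMIs, 8.41% of takinib macrophage-like cells and 13.3% of B-like cells held a Ptgs2 UMI (23.8% and 20.2% with all UMIs, at median depths of 6190.5 and 1828.5 UMIs), so the macrophage-like share was not above that of a lymphocyte class.

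The gene for prostaglandin E synthase, Ptges, showed the largest ratio of the 9 in macrophage-like cells. Its level there was 3.17 CPM in vehicle (64 counts) and 127 CPM in takinib (5387 counts), a ratio of 40.1 (interval 31.4 to 52.2). A Ptges UMI was found in 0.281% of vehicle and 9.33% of takinib macrophage-like cells after thinning (1.38% and 24.9% with all UMIs). B-like cells, a class not known for this enzyme, stood at 1.27% in takinib, and neutrophil-like cells at 1.82%. Macrophage-like cells held 9.26% of Ptges UMIs in vehicle and 69.2% in takinib. In vehicle the main holders were epithelial-like cells, with 58.9% of the UMIs, and fibroblast-like cells, with 17.4%. Neither of these classes passed the 2-fold rule: epithelial-like cells had 35.7 and 36.1 CPM (1.01, but 47.9 against the vehicle cells with Xist UMIs only and 13.6 at Leiden resolution 0.5), and fibroblast-like cells 55.7 and 79.2 CPM (ratio 1.42, interval 0.984 to 2.03). Monocyte-like, T-like and neutrophil-like cells did pass it, but from 1, 2 and 2 vehicle counts.

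The sequences before the start sites of Ptgs2 and Ptges, whose levels were higher together in macrophage-like cells, and of Ptgs1, whose level was lower, are shown for comparison. Each is the 250 bases before the RefSeq start on GRCm38.p6, 5′ to 3′ on the gene's own strand: chr1:150099781-150100030 for Ptgs2 (plus strand), chr2:30903298-30903547 for Ptges (minus strand) and chr2:36230176-36230425 for Ptgs1 (plus strand). Capitals mark every match, on either strand, to one of 9 short motifs: GGG and CC with any 5 bases between them for NF-kB, TGANTCA for AP-1, TGACG for a CRE core, TTGCNNAA for C/EBP, CACGTG for an E-box, GAGGAA for PU.1, GCGNGGGCG for Egr1, GGGCGG for Sp1 and TATAAA for a TATA box.
Ptgs2: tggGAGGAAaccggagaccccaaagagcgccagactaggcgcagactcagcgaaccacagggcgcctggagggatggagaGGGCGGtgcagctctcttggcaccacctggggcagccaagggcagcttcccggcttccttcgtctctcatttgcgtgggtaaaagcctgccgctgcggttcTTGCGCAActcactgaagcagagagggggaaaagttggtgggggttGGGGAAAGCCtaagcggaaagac
Ptges: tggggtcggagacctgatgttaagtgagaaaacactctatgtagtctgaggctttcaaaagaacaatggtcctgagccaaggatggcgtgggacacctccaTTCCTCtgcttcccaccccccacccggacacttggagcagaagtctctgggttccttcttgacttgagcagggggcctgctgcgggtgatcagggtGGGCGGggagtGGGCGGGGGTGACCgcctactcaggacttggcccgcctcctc
Ptgs1: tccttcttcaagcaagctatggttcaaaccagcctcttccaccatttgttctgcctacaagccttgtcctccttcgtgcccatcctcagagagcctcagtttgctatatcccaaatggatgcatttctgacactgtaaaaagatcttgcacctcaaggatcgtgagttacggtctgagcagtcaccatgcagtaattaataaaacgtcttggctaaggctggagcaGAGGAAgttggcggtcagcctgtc
Both Ptgs2 and Ptges held an NF-kB match, 23 bases before the start in Ptgs2 and 38 in Ptges, where it overlaps an Sp1 match. Such a match occurs in 45.8% of the 32851 promoters of the table, so it is a common run of letters. The windows of Alox5 and Lta4h, which did not pass 2-fold in macrophage-like cells, held 2 each. The window of Pla2g7, which was higher there, held none. Only the Ptgs2 sequence held a C/EBP match, 69 bases before the start, against 9.56% of all promoters. The Ptgs1 sequence held 1 PU.1 match, 24 bases before the start, and no match to another motif. Ptgs2 and Ptges held a PU.1 match as well, 247 and 149 bases before the start. A PU.1 match occurs in 23.3% of promoters. No TATA-box, AP-1, E-box, Egr1 or CRE-core letters were found in these 3 windows. A match is a run of letters and not a measured binding site. On GRCm38, Ptgs2 covers chr1:150100031-150108227, Ptges chr2:30889471-30929863 and Ptgs1 chr2:36230426-36252272 in the GENCODE annotation, and all 3 encode proteins. The RefSeq start used for Ptges lies inside the GENCODE span of the gene, so the annotations differ in its start. The others are Hpgds at chr6:65117293-65144908, Alox5 at chr6:116410077-116461178, Alox5ap at chr5:149264767-149288153, Ltc4s at chr11:50236461-50238616, Lta4h at chr10:93453411-93484875 and Pla2g7 at chr17:43568098-43612201. Alox5ap, Ltc4s and Pla2g7 each overlap a counted gene on the opposite strand (Gm19719, Gm26542 and 1700071M16Rik), whose reads could be told apart only if the counting used strand.

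The macrophage-like class was made of 5 clusters, and the libraries drew on different ones: 3484 of the vehicle cells lay in the cluster led by H2-Ab1 and Cd74, while most takinib cells lay in clusters led by Gpnmb and Mmp12 (2310 cells) or by U90926 and Saa3 (1871 cells). The last cluster held 1 vehicle cell, so it cannot be told apart from the takinib library itself. Ptges was among its leading genes, although it took no part in the clustering. Ptges reached 380 CPM in it, against 8.34 to 32.0 CPM in the other 4 takinib clusters. Ptgs2 reached 292 CPM in it, against 35.9 to 87.5 CPM in the others, and stood at 27.6 counts per 1000 counts of S100a8 and S100a9. Ptgs1 was at 26.9 CPM there, Ltc4s at 62.5 CPM and Alox5 at 9.63 CPM, each below every other macrophage-like cluster of either library. High Ptgs2 and Ptges and low Ptgs1, Alox5 and Ltc4s thus occurred in the same cluster. In single takinib macrophage-like cells, 1440 held a Ptgs2 UMI, 1508 a Ptges UMI and 605 held both, where in vehicle the numbers were 193, 64 and 4.

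With that cluster left out, the Ptges ratio became 8.46 and the Ptgs2 ratio 3.9, while Ptgs1, at 0.529, no longer passed the 2-fold rule. Alox5, at 0.962 with it, was at 1.24 without it, and Ltc4s at 0.871. In each shared cluster Ptgs1 was lower and Ptgs2 and Ptges were higher in takinib, by differing ratios. In the cycling cluster Ptgs1 had 208 and 143 CPM (0.684), Ptgs2 8.87 and 87.5 CPM (9.87) and Ptges a ratio of 5.15 from 5 and 37 counts. In the cluster led by Pf4 and Ccl8, Ptgs1 had 247 CPM in vehicle against 112 CPM in takinib (ratio 0.452), Ptgs2 10.6 and 66.9 CPM (6.34) and Ptges 2.44 and 32.0 CPM (13.1). In the cluster led by Gpnmb and Mmp12, Ptgs1 had 182 and 102 CPM (0.557), Ptgs2 8.58 and 70.2 CPM (8.18) and Ptges 6.27 and 27.8 CPM (4.44). In the cluster led by H2-Ab1 and Cd74, Ptgs1 had 218 and 181 CPM (0.828) and Ptgs2 20.6 and 35.9 CPM (1.75), neither of them past 2-fold, and Ptges 2.54 and 8.34 CPM (3.28, interval 1.80 to 5.80, from 37 and 20 counts). With the shared clusters weighted equally, the class ratio was 5.84 for Ptges, 5.36 for Ptgs2 and 0.627 for Ptgs1, the last of them not past 2-fold. Over the whole class, 3 members were called higher (Ptgs2, Ptges and Pla2g7) and 1 lower (Ptgs1) of 9 with 50 counts, where 6.62% of all genes were higher and 5.73% lower.

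**Figure D2:**
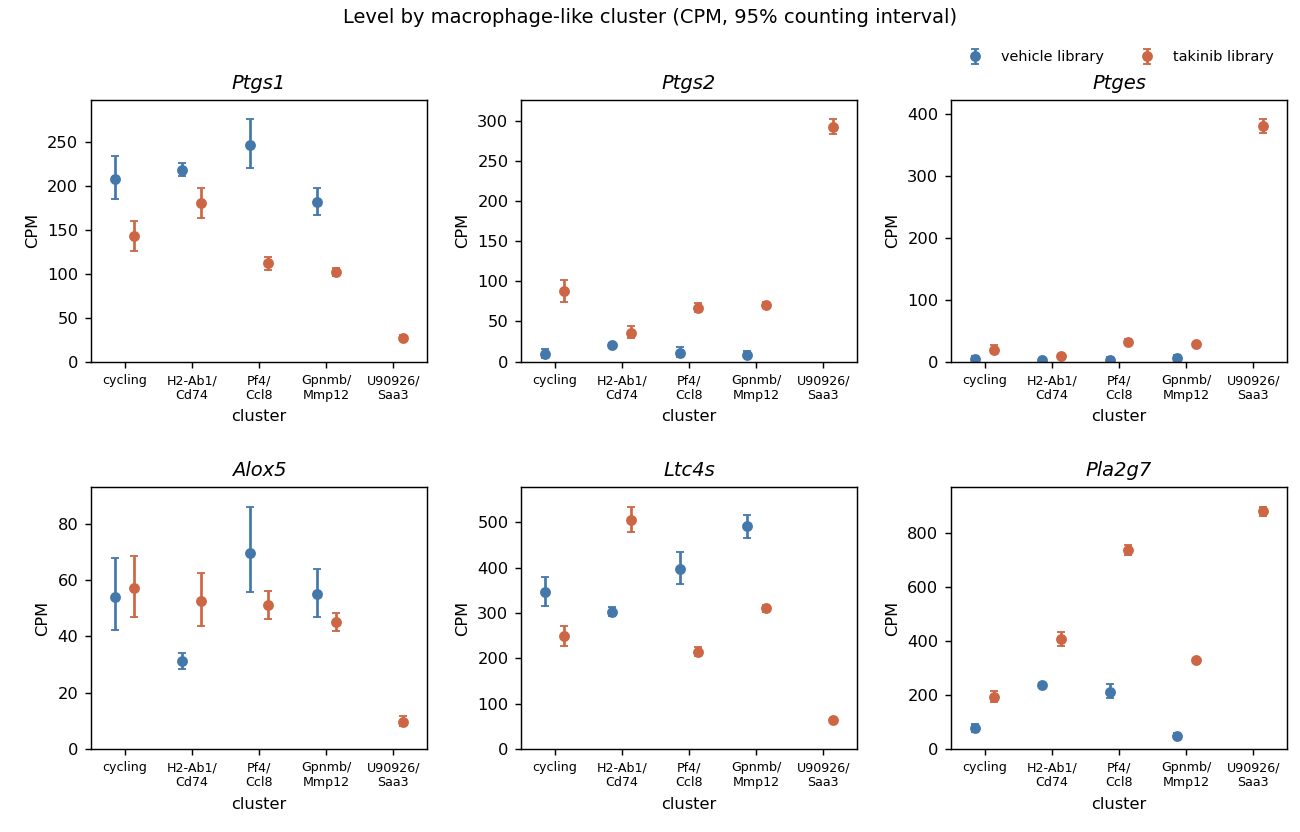
Level (CPM, with 95% counting intervals) of 6 genes in the 5 macrophage-like clusters, each named by leading genes, for the vehicle and takinib libraries; the U90926/Saa3 cluster has no vehicle point because it held 1 vehicle cell. Ptges and Ptgs2 were highest, and Ptgs1, Alox5 and Ltc4s lowest, in the U90926/Saa3 cluster.

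Hpgds, the prostaglandin D synthase gene, had few counts in most classes. Macrophage-like cells held 73.1% of its vehicle UMIs and 67.1% of its takinib UMIs, at 11.5 and 14.0 CPM. Within them it was concentrated in the cluster led by Pf4 and Ccl8, with 56.1 CPM in vehicle (69 counts) and 39.0 CPM in takinib (316 counts), against 3.30 to 15.4 CPM in the clusters led by H2-Ab1, Gpnmb or cycling genes. Erythroid-like cells of the takinib library had 20.9 CPM (89 counts), above the 14.0 CPM of the macrophage-like class. It reached 50 counts in 2 of the 8 classes and passed 2-fold in neither.

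Neutrophil-like cells were compared with a caution on their identity. The vehicle library held 268, of which 260 lay in the cluster led by Cxcr2 and G0s2. Takinib held 3034 there and 3295 in a cluster led by Ccl4 and Cxcl2. A further 838 lay in one led by Stfa2 and 481 in one led by the granule genes Ltf and Ngp. Takinib clusters of 4144 cells (led by Ccl3 and Lst1) and 275 cells (led by Gbp2 and Cxcl10) also scored best for neutrophil markers. They were left unnamed because a second class scored close, and the neutrophil-like values leave them out. Ptgs2 stood at 367 and 485 CPM in them, and Alox5 at 37.8 and 58.3 CPM. In the shared cluster, Siglecf was at 454 CPM in vehicle (in 40.0% of cells) and 57.9 CPM in takinib, Retnlg at 711 and 11000 CPM, and Ly6g at 17.9 and 227 CPM. The eosinophil granule genes Epx, Prg2 and Prg3 had 0 counts in those vehicle cells, and the eosinophil receptor gene Ccr3 had 1. The vehicle cells of this cluster were thus neutrophil-like cells of another marker profile than the takinib ones, and what part this has in the ratios was not tested. In the class as a whole the median gene had a ratio of 0.597, and 39.8% of all genes were lower in takinib and 7.09% higher. Against that background 3 members were called higher and 3 lower of 9.

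The 3 lower genes were Ltc4s, Ptgs1 and Alox5. Ltc4s had 262 CPM in vehicle against 20.4 CPM in takinib, a ratio of 0.0778 (interval 0.0621 to 0.0982) that was the lowest of all 72 combinations. Alox5 had 170 and 82.8 CPM (ratio 0.487, interval 0.377 to 0.640). Within the Cxcr2 and G0s2 cluster alone, Ltc4s had 278 and 40.2 CPM (0.145) and Ptgs1 197 and 45.6 CPM (0.231), while Alox5, at 173 and 129 CPM (0.744), was not past 2-fold. After division by the median gene's ratio, Ltc4s stood at 0.130, Ptgs1 at 0.241 and Alox5 at 0.817, while Ptgs2, at 3.13, then passed 2-fold. C1qa, C1qb and C1qc, complement genes of macrophages, moved the same way, with a summed level of 485 CPM in vehicle against 151 CPM in takinib neutrophil-like cells, while macrophage-like cells had 6710 and 3990 CPM. The part of macrophage RNA in the lower Ltc4s and Ptgs1 was not tested.

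The higher genes were Alox5ap, Pla2g7 and Ptges. Alox5ap had 713 CPM in vehicle against 2140 CPM in takinib (ratio 3.0, interval 2.66 to 3.41), and 681 and 2990 CPM within the Cxcr2 and G0s2 cluster (4.4). Ptgs2 in that cluster was near equal, with 415 and 474 CPM (1.14, interval 0.963 to 1.36), and its higher takinib level in the class came with the cluster led by Ccl4 and Cxcl2, where it stood at 1060 CPM. The takinib clusters differed from each other in all branches of the pathway. Alox5ap (3280 CPM), Alox5 (162 CPM) and Lta4h (213 CPM) were highest in the Ltf and Ngp cluster, where Ptgs2 was lowest, at 127 CPM. Lta4h was higher still, at 300 CPM, in an unnamed takinib cluster of 249 cells led by Elane and Mpo, genes of neutrophil precursors. Alox5 and Ptgs2 thus peaked in different neutrophil-like clusters of the takinib library.

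**Figure D3:**
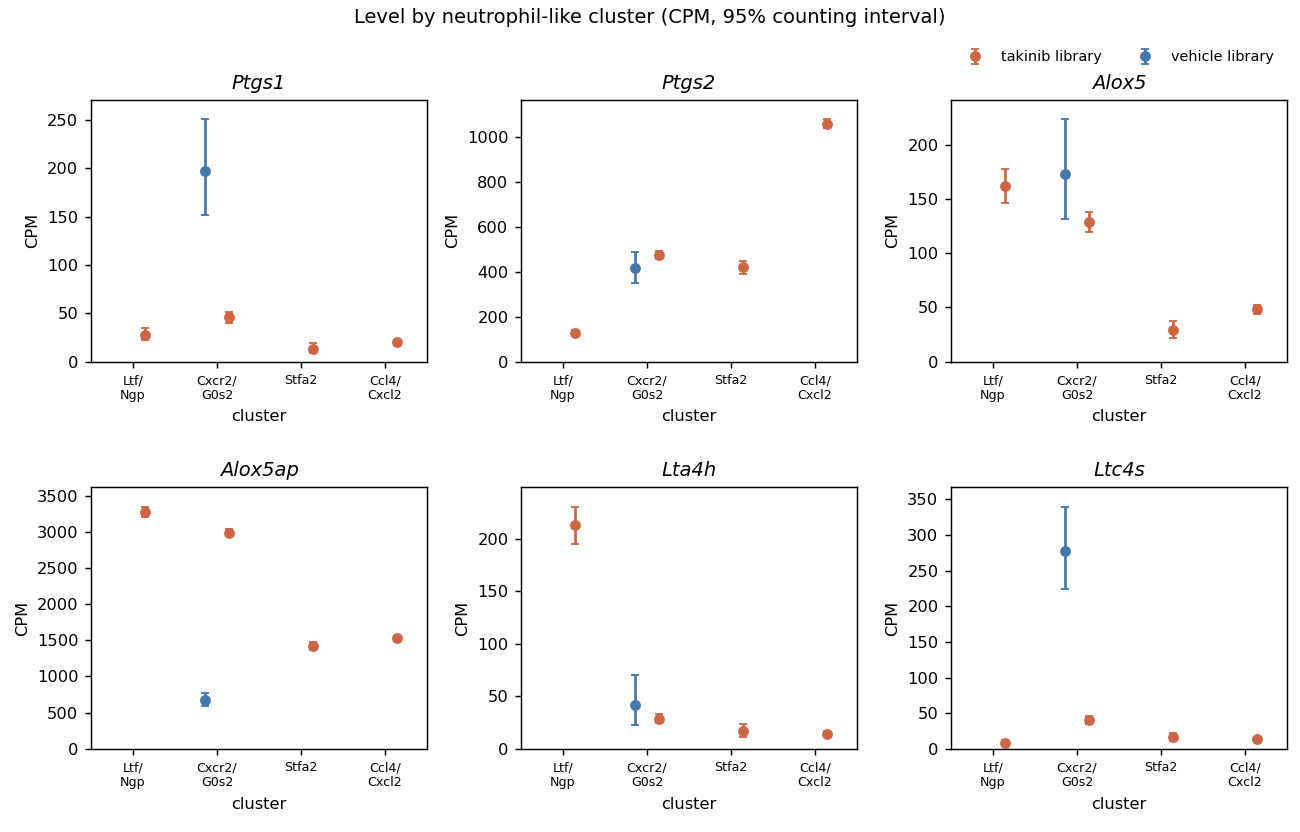
Level (CPM, with 95% counting intervals) of 6 genes in the 4 neutrophil-like clusters, each named by leading genes; only the Cxcr2/G0s2 cluster held enough vehicle cells (260) for a vehicle point. In that cluster Ptgs1 and Ltc4s were lower, Alox5ap higher and Ptgs2 near equal in takinib.

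In the leukotriene branch, Alox5ap, the helper of 5-lipoxygenase, was higher in takinib in all 8 classes and passed 2-fold in 7. Macrophage-like cells were the exception, with 605 CPM in vehicle against 856 CPM in takinib (1.41, interval 1.39 to 1.44). Monocyte-like cells had 839 and 1810 CPM. The ratios were largest where the vehicle level was low: 11.5 in B-like cells (60.0 and 689 CPM), 6.90 in endothelial-like cells (65.8 and 454 CPM), 6.52 for epithelial-like cells (31.4, 205 CPM) and 4.67 for fibroblast-like cells (36.7, 171 CPM). Subtraction of the neutrophil profile brought these to 1.17, 1.80, 2.18 and 1.54, so that only the epithelial-like ratio still passed 2-fold. Alox5 itself did not follow its helper: macrophage-like cells had 38.6 and 37.1 CPM (0.962, interval 0.882 to 1.05) and epithelial-like cells 8.86 and 10.6 CPM. It passed 2-fold upward in B-like cells (0 and 62 counts) and monocyte-like cells (3 and 114 counts, ratio 2.51, interval 0.839 to 12.4). With at most 10% mitochondrial UMIs the B-like value was at least 0.841, a bound from 0 vehicle counts that gives no direction. The monocyte-like ratio was 0.726 in thinned cells. Both genes were detected in 582 of 4622 vehicle and 1113 of 6054 takinib macrophage-like cells.

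Lta4h, which makes the neutrophil attractant leukotriene B4, differed little between the libraries. Its level lay between 35.0 and 62.7 CPM in the 8 vehicle classes and between 20.7 and 48.9 CPM in the takinib classes. The ratio was 0.989 in macrophage-like cells (interval 0.912 to 1.07) and 0.989 in epithelial-like cells (interval 0.876 to 1.12). It reached 50 counts in all 8 classes and passed 2-fold in none. Within the macrophage-like cluster led by Pf4 and Ccl8 the ratio was 2.17, from 19 vehicle counts. The Ltf and Ngp and the Elane and Mpo clusters of the takinib library, at 213 and 300 CPM, stood well above these class levels.

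Ltc4s, at the head of the cysteinyl leukotriene arm, was a gene of macrophage-like cells in both libraries, which held 87.6% of its vehicle and 81.9% of its takinib UMIs. Their level was 340 CPM in vehicle against 230 CPM in takinib (0.676, interval 0.655 to 0.697), short of 2-fold. The clusters did not share a direction: the H2-Ab1 and Cd74 cluster had 303 CPM in vehicle against 506 CPM in takinib (1.67), the Gpnmb and Mmp12 cluster 491 and 310 CPM (0.632), and the Pf4 and Ccl8 cluster 398 and 214 CPM (0.538). The ratio of the class therefore depends on which clusters each library holds, and with clusters weighted equally it was 0.831. Ltc4s passed 2-fold upward only in B-like cells, from 2 vehicle counts, and downward only in neutrophil-like cells.

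Pla2g7, the gene for the platelet-activating factor acetylhydrolase of plasma, was higher in takinib in all 8 classes, and past 2-fold in the 7 where it reached 50 counts. Macrophage-like cells, with 85.8% of its vehicle and 54.2% of its takinib UMIs, had 197 CPM in vehicle against 564 CPM in takinib (2.86, interval 2.76 to 2.96). Monocyte-like cells had 146 and 621 CPM (4.24) and neutrophil-like cells 89.2 and 369 CPM (4.14). The ratio was 2.49 in the cycling, 1.71 in the H2-Ab1 and Cd74, 3.48 in the Pf4 and Ccl8 and 6.70 in the Gpnmb and Mmp12 cluster of macrophages. It was 2.21 with the U90926 and Saa3 cluster left out, where the level was 883 CPM. Epithelial-like cells had 18.3 and 78.7 CPM (4.29), and 3.17 was left after subtraction of the neutrophil profile. The summed level of the macrophage genes C1qa, C1qb and C1qc in epithelial-like cells was 214 CPM in vehicle against 128 CPM in takinib. The part of RNA from macrophages or other myeloid cells in the epithelial-like Pla2g7 ratio was not tested.

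Among epithelial-like cells, Ptges and the genes of the leukotriene branch were highest in different cells. The cluster led by Cdkn2a and Krt7 had 60.7 CPM of Ptges in vehicle (389 of 407 epithelial-like counts) against 44.4 CPM in takinib (433 of 775). In takinib the cluster led by Gkn2 and Gkn1 stood at 51.7 CPM (34 counts, interval 35.8 to 72.2). The cluster led by Gkn3 and Dmbt1 had 3.69 CPM in vehicle (15 counts) and 27.8 CPM in takinib (7.52, interval 4.48 to 13.6). The vehicle value of the Cdkn2a and Krt7 cluster differed between cells with female and male markers. Its 417 vehicle cells with Y-linked UMIs and no Xist UMI held 299 Ptges counts (77.9 CPM, in 28.1% of cells), and its 99 cells with Xist UMIs and no Y-linked UMI held 1 count (1.23 CPM, in 1.01% of cells). The near-equal Ptges levels of the epithelial-like cells thus depend on which vehicle cells are counted. In macrophage-like cells the same split gave Ptges levels of 5.26 CPM (Xist only, 13 counts) and 2.02 CPM (Y-linked only, 13 counts), far below the takinib level, while Ltc4s had 493 and 339 CPM, Pla2g7 118 and 206 CPM and Ptgs1 174 and 238 CPM. The Ptgs1 ratio was 0.509 and the Ptgs2 ratio 9.29 against Xist-only vehicle macrophage-like cells.

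A small group of epithelial-like cells had high levels of Hpgds, Ltc4s, Alox5 and Alox5ap. It was a sub-cluster of 23 vehicle and 10 takinib cells led by Rgs13, Lrmp, Matk and Sh2d6, in which 7 of 8 tuft markers were detected (Il25 had 0 counts in vehicle and 1 in takinib), and it is called tuft-like here. Tuft cells are rare chemosensory cells that appear in injured and neoplastic pancreas and are known as makers of prostaglandin D2 and cysteinyl leukotrienes. The 9 genes took no part in forming the sub-cluster, though Ltc4s is among its leading genes, and its values are a description of the cells so grouped and not a test. In vehicle, the 23 cells had 320 CPM of Hpgds (32 counts), against 0.739 CPM in 1596 other epithelial-like cells, counted without sub-clusters led by leukocyte genes. Ltc4s stood at 760 and 10.4 CPM, Alox5 at 350 and 5.36 CPM, Alox5ap at 960 and 15.8 CPM and Ptgs1 at 200 and 31.0 CPM. In takinib, the 10 cells had 121 CPM of Hpgds (14 counts), against 1.48 CPM in 1219 others, 562 against 8.73 CPM of Ltc4s and 320 against 4.45 CPM of Alox5.

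Genes of both branches were thus high in these cells, but not all of them. Lta4h had 1 count in vehicle (10.0 CPM, against 36.5 CPM in other epithelial-like cells) and 4 in takinib (34.6 against 32.7 CPM). Ptges had 0 counts in the tuft-like cells of both libraries, with upper bounds of the 95% interval at 36.9 CPM (vehicle) and 31.9 CPM (takinib), while other epithelial-like cells had 37.3 and 39.0 CPM. Ptgs2 had 0 counts in vehicle and 8 in takinib. Pla2g4a, the cytosolic phospholipase A2 that supplies arachidonic acid, stood at 270 CPM in vehicle tuft-like and 54.9 CPM in other epithelial-like cells. Both Alox5 and Ltc4s were detected in 7 of 23 vehicle and 10 of 10 takinib tuft-like cells. Median depth was 5641 UMIs in tuft-like and 5695 in other epithelial-like cells. S100a8 and S100a9 were at 0 counts in the vehicle tuft-like cells, so neutrophil RNA was not detected there at this depth. Of the macrophage genes, C1qa had 2 counts and C1qb 9 (90.0 CPM) in vehicle tuft-like cells, where other epithelial-like cells stood at 49.2 and 48.8 CPM. In takinib tuft-like cells C1qa was at 104 CPM and C1qb at 207 CPM, against 33.0 and 43.2 CPM in the others, and the part of macrophage RNA in the Ltc4s and Alox5ap levels was not tested. In takinib S100a8 stood at 2330 CPM in tuft-like and 1710 CPM in other epithelial-like cells.

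**Figure D4:**
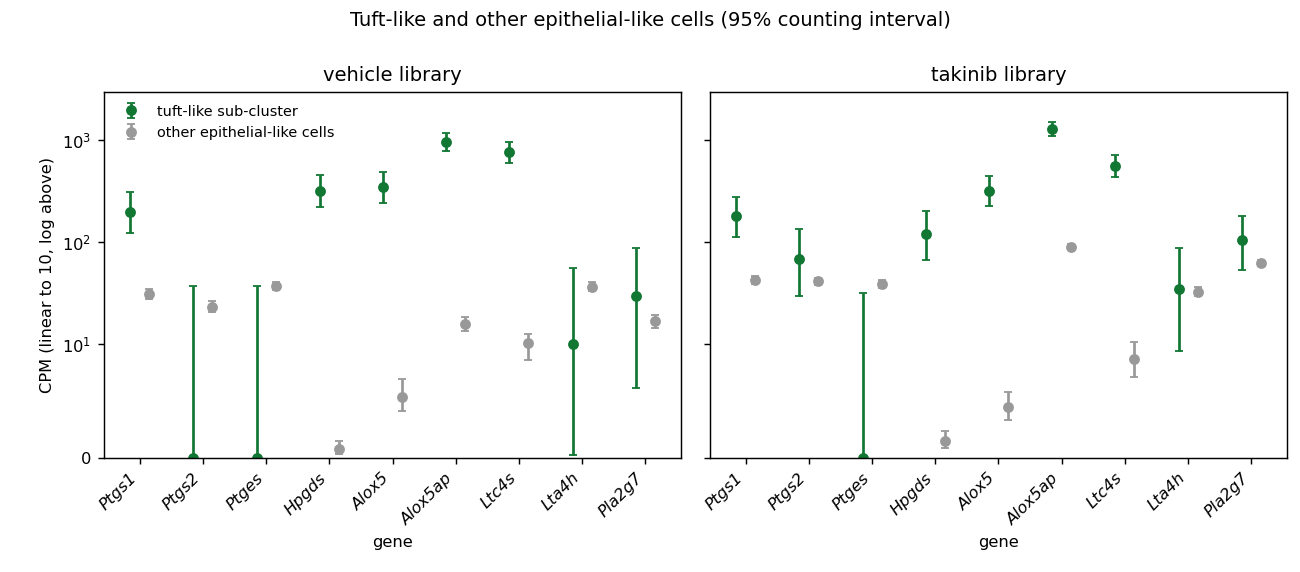
Level (CPM, linear to 10 and on a log scale above it, with 95% counting intervals) of the 9 genes in tuft-like cells (23 vehicle, 10 takinib) and other epithelial-like cells (1596 and 1219). Hpgds, Alox5, Alox5ap, Ltc4s and Ptgs1 were higher in the tuft-like cells of both libraries, and Ptges had 0 counts in them.

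Not all epithelial-like cells were free of leukocyte RNA. Sub-clusters led by leukocyte genes held 80 vehicle and 651 takinib cells. Without them, the epithelial-like ratio was 1.80 for Ptgs2, 4.16 for Alox5ap and 3.68 for Pla2g7, so Ptgs2 no longer passed 2-fold. Among all 8 epithelial-like members with 50 counts, 3 were called higher and 0 lower, where 7.42% of genes were higher and 7.71% lower.

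The counts in the other classes were as follows. In monocyte-like cells 5 of 8 members with 50 counts were higher and 0 lower, where 11.7% of genes were higher and 4.75% lower. In B-like cells 5 of 6 were higher (14.6% and 5.14% of genes), and in T-like cells 4 of 8 (8.48% and 2.91%). In endothelial-like cells 3 of 6 were higher and 1, Ptgs1, was lower (4.22% and 11.3%), and in fibroblast-like cells 1 of 5, Alox5ap, was higher (2.77% and 10.1%). The subtraction of the neutrophil profile takes every S100a8 and S100a9 count of a class as neutrophil RNA, an assumption that was not tested. It removed 29.9% of takinib UMIs in B-like, 16.6% in endothelial-like and 11.4% in T-like cells. In monocyte-like cells it removed 8.22%, and in macrophage-like cells 5.12%. After this subtraction, 18 combinations of gene and class were called higher over the 8 classes, in place of 27. The share over all genes after subtraction is not given here.

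One further set of cells stood out for the cyclooxygenases. A cluster led by Serpinb2, Timp1, Dcn and Ptgis held 138 vehicle and 255 takinib cells. All 5 mesothelial markers were detected in it, but none was among its leading genes, while the fibroblast marker Dcn was. It was therefore left without a name. Ptgs1 was at 181 CPM in vehicle against 148 CPM in takinib, Ptges at 61.6 and 76.3 CPM, and Ptgs2 at 32.2 and 307 CPM (9.53, interval 6.37 to 15). Of 7 members with 50 counts, Ptgs2 was higher and Ltc4s, at 56.3 and 20.8 CPM, lower, where 8.61% of genes were higher and 6.36% lower. Ptgis, which makes prostacyclin, was among the genes that led the cluster.

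The rest of the pathway did not share one direction. Of 57 listed genes, 56 were matched. They gave 175 combinations of gene and class with 50 counts, with a median ratio of 0.961. Of these, 29 (16.6%) were higher and 27 (15.4%) lower, where 7.73% of all gene and class combinations were higher and 11.3% lower. In the pairs of values that follow, vehicle stands before takinib. Among the phospholipases A2, 3 combinations were higher and 7 lower of 22 (13.6% and 31.8%). Pla2g10, a secreted form, was lower in epithelial-like cells (15.3 and 4.24 CPM). Pla2g4a was higher in monocyte-like cells (11.9 and 41.6 CPM, from 4 vehicle counts). Among the other prostanoid synthases 2 were higher and 6 lower of 35 (5.71% and 17.1%), near the shares over all combinations. The lower ones included Akr1b3 in neutrophil-like cells (36.2 and 6.01 CPM) and the thromboxane synthase gene Tbxas1 in epithelial-like cells (12.3 and 5.5 CPM). Among genes of prostaglandin breakdown and transport 2 were higher and 5 lower of 19 (10.5% and 26.3%). In macrophage-like cells both Hpgd, the enzyme that inactivates prostaglandin E2 (25.9 and 5.70 CPM, ratio 0.220), and Slco2a1, its transporter (2.63 and 0.567 CPM, 0.216), were lower over the class as a whole. The 12/15-lipoxygenase gene Alox15 had one of the lowest ratios there, with 145 and 29.6 CPM (0.204, interval 0.190 to 0.218).

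Beyond leukotriene A4, 7 combinations were higher and 2 lower of 32 among the genes of conversion and export (21.9% and 6.25%). Over all gene and class combinations the shares were 7.73% and 11.3%. In macrophage-like cells Mgst2, a microsomal glutathione transferase that can also make leukotriene C4, was at 3.52 and 19.3 CPM (5.48), and the exporter gene Abcc1 at 21.0 and 43.2 CPM. The lower pair, which the rule for named genes does not cover and which was chosen after its values were seen, was Cyp4f18, which degrades leukotriene B4 (198 and 69.7 CPM, 0.353), and Ggt5 (24.4 and 7.18 CPM), both in macrophage-like cells. In neutrophil-like cells Abcc1 (13.9 and 49.5 CPM, from 5 vehicle counts) was higher, and Ggt1 had 0 vehicle and 488 takinib counts. In the list for platelet-activating factor 9 were higher and 3 lower of 43 (20.9% and 6.98%). Its receptor gene Ptafr was at 89.2 and 241 CPM in neutrophil-like cells and at 1.40 and 25 CPM in epithelial-like cells, where the synthesis gene Lpcat2 was at 11.6 and 30.6 CPM.

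The leading prostanoid receptor gene was Ptger4, for prostaglandin E2, in macrophage-like (23.5 and 14.5 CPM), monocyte-like (14.9 and 13.2 CPM), T-like (27.0 and 14.5 CPM), B-like (7.50 and 11.2 CPM) and epithelial-like cells (20.2 and 11.1 CPM). It was Ptger2 in neutrophil-like cells (16.7 and 11.5 CPM), the thromboxane receptor gene Tbxa2r in endothelial-like cells (15.8 and 22.3 CPM) and Ptger3 in fibroblast-like cells (97.0 and 34.2 CPM), the only one of these past 2-fold. The leads in B-like (3 and 33 counts) and endothelial-like cells (34 and 16 counts) rest on under 50 counts in each library. The leading leukotriene receptor gene was Cysltr1, for cysteinyl leukotrienes, in macrophage-like cells (54.3 and 35.2 CPM). In the other 7 classes it was Ltb4r1, the high-affinity leukotriene B4 receptor of neutrophils, with 97.5 and 142 CPM in neutrophil-like and 74.6 and 157 CPM in monocyte-like cells. In endothelial-like (5 and 21 counts) and fibroblast-like cells (6 and 5 counts) Ltb4r1 led on under 50 counts in each library. Its level in classes that hold neutrophil RNA, such as B-like cells (0 and 145 counts), moved in the same direction as S100a8 and S100a9, and the part of free RNA in it was not tested. Cysltr1 in neutrophil-like cells had 64.1 and 10.6 CPM (0.165, interval 0.107 to 0.266), low in takinib like Ltc4s.

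The genes with class profiles closest to each member were found by the correlation of log2(CPM + 10) over 19 sums of a class in a library, among 14285 genes. These sums share libraries and depth, and the correlations are descriptions. For Ptgs2 they were Ier3 (r = 0.96), Grina (0.96) and Hcar2 (0.95). For Ptges they were Mir155hg (0.83), Draxin (0.81) and Cacna1b (0.81), and for Ptgs1 Tbc1d13 (0.88), Tomm6 (0.84) and Vps13c (0.83). For Alox5ap they were Fcer1g (0.98), Msrb1 (0.98) and Itgam (0.97), for Alox5 Gm14023 (0.94), Clec5a (0.92) and Cd101 (0.91), and for Ltc4s Cd200r1 (0.91), Itgax (0.90) and Tcirg1 (0.85). For Pla2g7 they were Aoah (0.97), F10 (0.96) and Pirb (0.96). Like Ptges, Hpgds (Arhgap19 0.85, Incenp 0.82, Nusap1 0.80) and Lta4h (Commd8 0.82, Brk1 0.81, Ttyh3 0.80) had no neighbour above 0.85.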

How the data were processed

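Single-cell RNA of KPPC tumours was counted in 1 vehicle and 1 takinib library. The authors deposited 1 matrix of unnormalized UMI counts for each library, written by Cell Ranger 4 (vehicle) and 6.1.1 (takinib), per the file headers; the submitters' processing notes name Cell Ranger 2.1.1 and mm10. The vehicle matrix lists 704261 barcodes, many without UMIs, and the takinib matrix 34158 with at least 500 UMIs each, so takinib barcodes were filtered before deposit. The matrices sum to 80850334 and 139292875 UMIs.

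Barcodes were kept with at least 1000 UMIs, 500 genes and at most 20% mitochondrial UMIs (9872 and 26790). Scrublet's automatic threshold removed 314 vehicle doublets; in takinib it marked 0.00373%, so the highest 6% of scores (1607) were removed. Both libraries were clustered with scanpy 1.11.5 (2000 variable genes without the 9 genes or the pathway lists, 30 components, 15 neighbours, Leiden resolution 1, igraph 0.11.9, seed 1), with no batch correction. Clusters took a class's name from marker lists when at least 3 markers were detected, no other class scored 0.75 of the best and no other class led their top 10 genes; this naming rule was set after the data were seen. The members, marker lists and pathway lists were chosen with earlier results of these data known.

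Levels carry exact Poisson, ratios exact conditional binomial and shares exact Clopper-Pearson 95% intervals (Python 3.11.15, scipy 1.17.1), which cover counting error only. A count of 0 was set to a floor of 3 counts for a ratio, given as a bound. With 1 library per group no test was run. The sums were checked on simulated data. All 9 members were named; of the pathway lists, up to 3 highest and 3 lowest genes past 2-fold per class, the leading receptor genes, and for each member the 3 closest class profiles. Promoters are RefSeq's (8 of 9 genes matched).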

Additional observations from a re-analysis of the deposited data

How the results depend on the processing

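The counts of 27 higher and 5 lower combinations of gene and class were recomputed under 13 other settings and 3 more chosen after seeing the data. The shares over all genes under these settings are not given here, so the counts have no background beside them. The lower count was 3 with at least 2000 UMIs and 1000 genes per cell (neutrophil-like cells were then too few to compare), 9 with at most 10% mitochondrial UMIs, and 3 with cells thinned to 1000 UMIs, with 10 CPM added, with scaling to the median gene, and with clusters weighted equally. Against vehicle cells with Xist UMIs and no Y-linked UMIs, which left 4 classes, the counts were 13 higher and 1 lower, and 10 of the 12 calls that could be made again were made. The higher count was 18 with the neutrophil profile subtracted and between 19 and 30 under the others. Of the 32 calls, 22 were made again in thinned cells and 30 after scaling. Among the called values, 2 fell on the other side of 1. For Alox5 in B-like cells the value was at least 0.841 with at most 10% mitochondrial UMIs (at least 2.8 in the main setting). Both are lower bounds from 0 vehicle counts set to the floor of 3, so no reversed direction is shown. Alox5 in monocyte-like cells was 0.726 in thinned cells (2.51 in the main setting, from 3 vehicle counts). Values that were not called fell on the other side of 1 as well. Ptgs2 in fibroblast-like cells, at 1.81, became an upper bound of 0.286 when the neutrophil profile was subtracted. That subtraction left no takinib counts of the gene, so the bound comes from the floor of 3 counts. The cause of the other changes was not tested. The macrophage-like Ptges ratio ran from 5.84 with clusters weighted equally to 47.3 in thinned cells, and was 6.41 at Leiden resolution 0.5. The epithelial-like Ptges ratio of 1.01 was 47.9 against Xist-only vehicle cells and 13.6 at that resolution. For Ptgs2 the macrophage-like ratio ran from 3.9 to 9.29. The epithelial-like one ran from 1.42 with the neutrophil profile subtracted to 52.5 at Leiden resolution 0.5. No paired analysis was possible because each group is 1 library. Depth limits the vehicle values of monocyte-like, B-like, T-like and neutrophil-like cells most, where several members had 0 to 7 counts, and the takinib values of endothelial-like and fibroblast-like cells.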
